A study of Mus musculus with 16 samples.

Results

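A set of 483 genomic regions was chosen by the presence of ATAC-Seq peaks in 4 groups of mouse hematopoietic progenitors. Of 90549 regions in all, these 483 (0.533%) had a peak in at least 3 of 4 hi-77+/+ empty libraries and at least 3 of 4 hi-77-/- GATA2 libraries. They had a peak in at most 1 of 4 hi-77-/- empty libraries and at most 1 of 4 hi-77-/- 9aa-Ins libraries. Peaks were thus present with an intact enhancer, scarce without it, present again with GATA2 and scarce with the variant. The presence of peaks in all 16 libraries chose the regions, and hi-77-/- empty entered the choice at both the deletion step and the rescue step.

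The cells were fetal liver progenitors immortalized with HoxB8 and grown with β-estradiol. hi-77+/+ cells were wild type, and hi-77-/- cells lacked the -77 enhancer of Gata2. hi-77+/+ cells carried an empty retroviral vector. hi-77-/- cells carried the empty vector, GATA2 or 9aa-Ins, a variant of GATA2 lengthened by an insertion between its zinc fingers. Retroviral infection lasted 3 days in every group, the GFP+ cells were sorted, and each group had 4 libraries. The labels name no separate lines within a genotype, so a difference between genotypes cannot be told apart from a difference between cell lines. Expression from a retrovirus does not follow the control of the native gene. The study calls the libraries of a group biological replicates. The labels do not say whether these were separate cultures or infections, so p-values measure the spread between libraries as sampled.

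GATA2 is a zinc finger transcription factor of stem and progenitor cells, mast cells and basophils. It binds the sequence WGATAR, that is GATA with A or T before it and A or G after it, often beside factors of the ETS, RUNX and AP-1 families. At some hematopoietic enhancers a GATA motif follows an E-box, CANNTG, and GATA factors occupy such composite elements together with TAL1 (also called SCL). The -77 element is a distal enhancer that raises Gata2 transcription in myeloid progenitors.

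Sequences of 10 of the 483 regions follow, from 100 bp before to 100 bp after the median summit, on the plus strand of GRCm38. Each is named by its nearest protein-coding gene. Capitals mark WGATAR on either strand (as its reverse complement when it lies on the other strand) and, in the first 3, the E-box of the composite. The first 3 carry the composite, the fourth holds adjacent WGATAR motifs, and the next 5 hold WGATAR in neither of these arrangements. The last was the highest ranked region without WGATAR among those with peaks in 4 of 4, 4 of 4, 0 of 4 and 0 of 4 libraries. The regions lay in introns or between genes.
Slc18a2 (chr19:59248864-59249064): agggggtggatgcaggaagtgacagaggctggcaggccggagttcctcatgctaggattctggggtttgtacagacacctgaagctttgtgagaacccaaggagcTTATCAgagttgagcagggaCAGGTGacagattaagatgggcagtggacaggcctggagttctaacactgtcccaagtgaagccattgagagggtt
Dapp1 (chr3:137957937-137958137): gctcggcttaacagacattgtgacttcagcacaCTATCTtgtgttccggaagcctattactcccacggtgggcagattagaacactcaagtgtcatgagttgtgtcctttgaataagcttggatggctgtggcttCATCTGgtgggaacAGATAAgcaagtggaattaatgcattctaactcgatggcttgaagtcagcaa
Fam126a (chr5:23922939-23923139): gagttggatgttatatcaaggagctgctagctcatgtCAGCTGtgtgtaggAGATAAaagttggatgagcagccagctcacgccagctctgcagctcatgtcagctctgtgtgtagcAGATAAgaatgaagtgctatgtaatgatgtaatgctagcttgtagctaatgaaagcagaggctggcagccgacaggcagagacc
Inpp4b (chr8:81773629-81773829): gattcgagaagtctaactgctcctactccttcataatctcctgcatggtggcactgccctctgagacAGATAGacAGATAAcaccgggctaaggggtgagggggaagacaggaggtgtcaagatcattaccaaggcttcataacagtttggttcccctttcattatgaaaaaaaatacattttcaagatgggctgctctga
Capzb (chr4:139179841-139180041): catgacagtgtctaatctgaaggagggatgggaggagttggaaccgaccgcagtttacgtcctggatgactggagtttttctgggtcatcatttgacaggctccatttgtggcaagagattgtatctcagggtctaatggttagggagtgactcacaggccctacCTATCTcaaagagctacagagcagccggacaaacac
Ubr2 (chr17:47174747-47174947): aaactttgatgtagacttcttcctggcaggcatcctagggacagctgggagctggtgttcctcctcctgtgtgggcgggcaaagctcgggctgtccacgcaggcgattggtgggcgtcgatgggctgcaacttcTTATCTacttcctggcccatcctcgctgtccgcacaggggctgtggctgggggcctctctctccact
Zfpm1 (chr8:122296703-122296903): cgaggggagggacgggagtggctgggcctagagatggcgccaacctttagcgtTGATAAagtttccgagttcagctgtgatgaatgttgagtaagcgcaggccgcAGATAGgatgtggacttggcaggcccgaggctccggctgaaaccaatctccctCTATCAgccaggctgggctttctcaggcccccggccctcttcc
Cd34 (chr1:194935520-194935720): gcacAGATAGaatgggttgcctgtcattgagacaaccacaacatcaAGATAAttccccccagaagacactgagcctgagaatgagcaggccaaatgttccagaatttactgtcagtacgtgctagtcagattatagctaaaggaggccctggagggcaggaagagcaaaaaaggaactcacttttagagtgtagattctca
Pdzk1ip1 (chr4:115074873-115075073): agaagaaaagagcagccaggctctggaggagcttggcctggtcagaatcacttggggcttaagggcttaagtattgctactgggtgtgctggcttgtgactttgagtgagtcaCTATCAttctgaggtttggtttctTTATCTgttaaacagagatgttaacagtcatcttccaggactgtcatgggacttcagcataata
Sec22b (chr3:97942626-97942826): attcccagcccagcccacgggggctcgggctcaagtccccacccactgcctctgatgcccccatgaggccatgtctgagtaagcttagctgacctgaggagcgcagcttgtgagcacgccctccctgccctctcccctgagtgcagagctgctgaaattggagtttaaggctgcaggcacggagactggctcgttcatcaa

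The Slc18a2 motifs were TTATCA and CAGGTG, separated by 14 bases. In the Dapp1 region CATCTG preceded AGATAA by 8 bases, and in the Fam126a region CAGCTG preceded AGATAA by 8 bases. The Zfpm1 region held 3 WGATAR motifs, and the Cd34 region held 2.

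The deposited lists held 50195 to 112267 peaks per library, and the 49000 most significant peaks of each on chromosomes 1 to 19 and X were compared. Peaks lay at the promoter of 9 of 10 hematopoietic marker genes in all 16 libraries, and at that of Cd48 in none. Of 17 genes of other cell types, 11 had a promoter peak in none, including the hepatocyte genes Alb and Afp and the keratinocyte genes Krt5 and Krt14. Pdgfra and Neurod1 had one in 16 libraries, Col1a1 in 15, Apoa1 in 13, Kdr in 3 and Cdh5 in 1. The lists hold no read totals, so depth is unknown. A peak shared by a population can weaken through fewer cells with the site open or through less access per cell, and these cannot be told apart.

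The deletion step alone, a peak in at least 3 of 4 hi-77+/+ empty and at most 1 of 4 hi-77-/- empty libraries, held for 6576 regions (7.26%). The rescue step alone, a peak in at least 3 of 4 GATA2 and at most 1 of 4 hi-77-/- empty libraries, held for 4430 regions (4.89%). Both steps held for 909 regions (1.0%). Of these 909, 483 (53.1%) had a peak in at most 1 9aa-Ins library, 137 (15.1%) in 2 and 289 (31.8%) in at least 3. Thus 9aa-Ins reached the level set for GATA2 at a minority of the regions that passed both steps. Both steps share the hi-77-/- empty libraries, and these counts follow from the rule.

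Among the 483 regions, 276 (57.1%) had a peak in 4 of 4 hi-77+/+ empty libraries, 220 (45.5%) in 4 of 4 GATA2, 247 (51.1%) in 0 of 4 hi-77-/- empty and 266 (55.1%) in 0 of 4 9aa-Ins. A peak in 4 of 4, 4 of 4, 0 of 4 and 0 of 4, so that the groups did not overlap, was found for 49 regions (0.0541% of all regions). At the other edge, 33 regions had 3, 3, 1 and 1. Just outside the rule by 1 library were 251 regions with 2 of 4 hi-77+/+ empty, 206 with 2 of 4 hi-77-/- empty, 549 with 2 of 4 GATA2 and 137 with 2 of 4 9aa-Ins libraries. The edge was thus most crowded on the side of GATA2.

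In the libraries that chose them, 92.3, 87.2, 88.4 and 89.2% of the regions had a peak in hi-77+/+ empty replicates 1 to 4. The shares were 85.9, 85.3, 88.8 and 85.5% in GATA2. They were 14.7, 9.32, 11.8 and 13.0% in hi-77-/- empty. They were 22.2, 9.32, 6.0 and 7.45% in 9aa-Ins. The gap between the upper and lower groups was fixed by the rule. The regions were moderate peaks in the libraries where they were called. Ranked by significance from 0 (strongest) to 100 (weakest of the 49000), their median rank percentile was 62.9, 61.3, 61.3 and 62.8 in hi-77+/+ empty and 64.1, 70.3, 68.4 and 72.9 in GATA2. The mean of the medians was 6.85 points weaker in GATA2, and peaks were narrower, with medians of 143 ± 13.6 bp in GATA2 and 185 ± 8.02 bp in hi-77+/+ empty (SD, n = 4). Neither pair of groups overlapped. Over all 49000 peaks the median widths were 177, 241, 211 and 245 bp in GATA2 and 260, 242, 238 and 212 bp in hi-77+/+ empty. These library-wide widths did overlap. Since ranks in these libraries chose the regions, no p-value is given. With 4 of 4 and 0 of 4 required, the rank difference was -2.05, and with all deposited peaks the width difference was 13.2 bp. Without any single hi-77+/+ empty library, which loosens the rule for that group, the rank difference was 1.51 to 3.32 and the width difference -33.1 to -26.3 bp. The directions therefore did not hold under every choice of regions. The median summits in GATA2 and hi-77+/+ empty differed by a median of 17 bp and lay within 50 bp of each other at 410 of 483 regions (84.9%).

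Some regions without a peak among the 49000 had a weaker one. Counting every deposited peak, 46.4, 41.2, 55.1 and 42.7% of the regions had one in hi-77-/- empty, and 91.9, 87.0, 64.8 and 45.5% had one in 9aa-Ins. The 9aa-Ins lists held 108020, 104581, 85460 and 70547 peaks, and the share followed that order. The groups overlapped, with a difference of 26.0 percentage points between 9aa-Ins and hi-77-/- empty, and of 34.1 without 9aa-Ins replicate 4. These are the libraries that chose the regions, so the values are a description. For comparison, 86.3 to 95.9% had a deposited peak in GATA2 and 98.1 to 99.8% in hi-77+/+ empty. The weakest of the 49000 peaks had a −log10 p of 8.75 to 11.7 in 9aa-Ins and 7.38 to 8.13 in hi-77-/- empty. It was 5.35 to 7.43 in GATA2 and 8.34 to 9.70 in hi-77+/+ empty. The cutoff by rank was thus stricter in significance for 9aa-Ins than for GATA2. No deposited peak in any of the 8 hi-77-/- empty and 9aa-Ins libraries was found at 14 regions (2.9%), and a deposited peak in all 8 at 27 regions (5.59%).

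**Figure D1:**
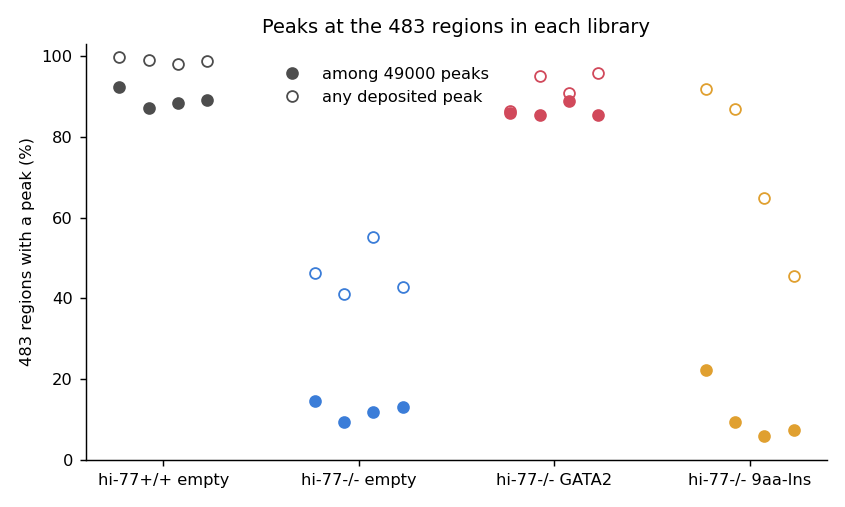
Share of the 483 regions with a peak in each of the 16 libraries, in percent, by group, counting the 49000 most significant peaks that chose the regions (filled points) or every deposited peak (open points). The open points of 9aa-Ins spread from 45.5 to 91.9%, while the filled points of hi-77-/- empty and 9aa-Ins stay at or below 22.2%.

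To score libraries that had no part in the choice, 1 library of each of 2 groups was left out, the regions were chosen again with the other 14, and both were scored. The sets held 634 to 997 regions, since 3 libraries pose a looser test than 4. hi-77+/+ empty libraries had a peak at 71.8 ± 3.45% and hi-77-/- empty libraries at 26.7 ± 4.08% (SD, n = 4), a difference of 45.1 points (exact permutation p = 0.0286, adjusted over 5 comparisons 0.0357). GATA2 libraries had a peak at 54.6 ± 1.51% and hi-77-/- empty libraries at 28.1 ± 3.61% (SD, n = 4), a difference of 26.5 points (exact permutation p = 0.0286, adjusted 0.0357). Without any single GATA2 library this difference was 14.9 to 16.2 points (exact permutation p = 0.0286 for each). Hence both steps of the rule were seen again in libraries left out of the choice. Merging still used all 16 libraries. The scores within a group came from overlapping sets, and the permutations did not choose the regions again. The p-values of these shares are therefore approximate. 9aa-Ins libraries reached 42.3, 27.0, 20.3 and 19.7% and hi-77-/- empty libraries 33.9, 25.7, 35.3 and 33.9%. The groups overlapped, with a difference of -4.84 points (exact permutation p = 0.514, adjusted 0.514), and the sign turned with other settings. GATA2 exceeded 9aa-Ins, 54.7 ± 1.49% against 22.4 ± 10.6% (SD, n = 4), by 32.4 points (exact permutation p = 0.0286, adjusted 0.0357). With all deposited peaks the last difference was 23.2 (exact permutation p = 0.171). It was 19.1 when a library's peaks had to cover 50% of the region (p = 0.143 by the exact permutation test). Without GATA2 replicates 1 to 4 in turn it was at least 20.1, each with an exact permutation p of 0.0571. GATA2 fell short of hi-77+/+ empty, 55.4 ± 1.59% against 71.0 ± 2.55% (SD, n = 4), a difference of -15.6 points (exact permutation p = 0.0286, adjusted 0.0357). That shortfall was 5.33 in the opposite direction with 4 of 4 and 0 of 4 required (exact permutation p = 0.171), and -5.43 with all deposited peaks (exact permutation p = 0.571). It was -1.5 to 0.174 without any single hi-77+/+ empty library, with an exact permutation p of at least 0.457, and -31.1 to -29.2 without any single GATA2 library. The size of the shortfall therefore depended on which group had the looser rule.

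The GATA motif divided the 483 regions. WGATAR lay within 100 bp of the median summit at 224 of them (46.4%), against 26.4% of all 90549 regions. The share was 74.4% at 2229 regions with the GATA2 pattern alone (peaks in GATA2 and at most 1 library of every other group). It was 24.2% at 4282 regions with peaks in hi-77+/+ empty alone, and 35.3% at the 289 regions where 9aa-Ins also had peaks. The 483 regions thus lay between the GATA2 pattern and the hi-77+/+ empty pattern. The same contrast ran through the steps of the rule. With WGATAR, 7.27% of regions passed the deletion step, and without it 7.26% did. With WGATAR, 11.4% passed the rescue step, and without it 2.54% did. All of these shares are descriptions, and no test was made of the number of motifs.

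Around the summit, WGATAR was found at 15.7 to 17.6% of the 483 regions per 50-bp bin from -50 to 100 bp. For all regions the same bins gave 8.01 to 8.28%. Beyond 200 bp from the summit the regions gave 7.66 to 10.8%. The motif was more frequent in regions that met the rule more clearly. It was present at 63.2% of the 220 regions with peaks in 4 of 4 GATA2 libraries and at 32.3% of the 263 with 3 of 4. It was present at 56.7% of the 247 with 0 of 4 hi-77-/- empty and at 35.6% of the 236 with 1 of 4. It was present at 54.5% of the 266 with 0 of 4 9aa-Ins and at 36.4% of the 217 with 1 of 4. For hi-77+/+ empty the order was the other way, 40.9% of the 276 with 4 of 4 and 53.6% of the 207 with 3 of 4. Of the 49 regions with 4, 4, 0 and 0, 31 (63.3%) held WGATAR. By deposited peaks in the 8 hi-77-/- empty and 9aa-Ins libraries, the share was 61.4% of 70 regions with 0 to 2, 52.0% of 221 with 3 to 5 and 34.4% of 192 with 6 to 8.

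**Figure D2:**
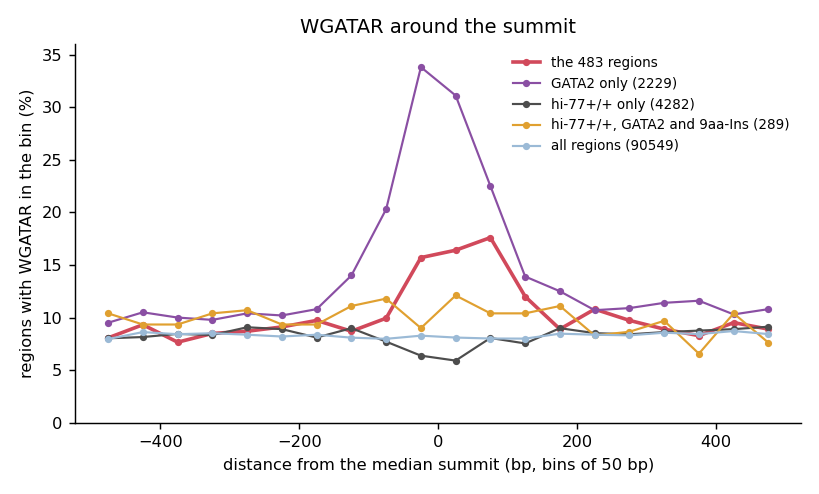
Share of regions with WGATAR on either strand in each 50-bp bin, in percent, by distance from the median summit, for the 483 regions, 3 sets of a similar pattern and all regions. The 483 regions reach 17.6% near the summit, below the 33.8% of regions with the GATA2 pattern alone and above all regions, which stay between 7.96 and 8.72%.

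Regions with and without WGATAR differed in the libraries left out of the choice. This split was tested after the data had been seen. It is not independent of the shares with and without WGATAR that passed each step, which came from the same libraries. The merged regions and the median summits that set the WGATAR label also came from all 16 libraries. At regions with WGATAR, GATA2 libraries had a peak at 67.1, 69.1, 69.9 and 65.2% and hi-77+/+ empty libraries at 71.1, 65.2, 65.8 and 59.7%. The groups overlapped, with a difference of 2.36 points (exact permutation p = 0.457). At regions without WGATAR, GATA2 libraries had a peak at 46.2, 48.0, 46.3 and 44.6% and hi-77+/+ empty libraries at 76.2, 70.9, 76.6 and 76.9%. The groups did not overlap, and GATA2 was lower by 28.9 points, a difference of -28.9 (exact permutation p = 0.0286). The gap between the differences was 31.2 points (exact permutation p = 0.0286, adjusted over 5 comparisons 0.0476). It ran from 20.0 (without GATA2 replicate 4) to 35.7 when single libraries were left out, and each of those values had an exact permutation p of 0.0286. With 4 of 4 and 0 of 4 required, the gap was smaller, 16.2 points (exact permutation p = 0.0286).

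Against hi-77-/- empty, GATA2 gained 44.4 points at regions with WGATAR, 66.7 ± 2.47% against 22.2 ± 1.95% (SD, n = 4). It gained 15.6 points at regions without it, 47.2 ± 1.45% against 31.6 ± 4.61% (SD, n = 4). The gains differed by 28.8 points (exact permutation p = 0.0286, adjusted 0.0476), and by 18.7 to 30.6 when single libraries were left out. Against 9aa-Ins, GATA2 was higher by 49.1 points with WGATAR and by 22.0 points without it, a gap of 27.2 (exact permutation p = 0.0286, adjusted 0.0476), and of 16.7 to 29.5 when single libraries were left out. The lowest of these values came without GATA2 libraries. With 4 of 4 and 0 of 4 required, the gap was 17.1 points against hi-77-/- empty and 12.6 points against 9aa-Ins (exact permutation p = 0.0286 for each). hi-77+/+ empty was higher than hi-77-/- empty by 46.4 points with WGATAR and by 44.0 without it. The gap of 2.31 between these did not pass the test (exact permutation p = 0.486, adjusted 0.486). It ran from -2.24 to 4.25 when single libraries were left out, which does not show that the 2 differences were equal. For 9aa-Ins against hi-77-/- empty the values were -3.05 with WGATAR and -6.24 without it, and their difference of 3.19 did not pass either (exact permutation p = 0.457, adjusted 0.486).

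**Figure D3:**
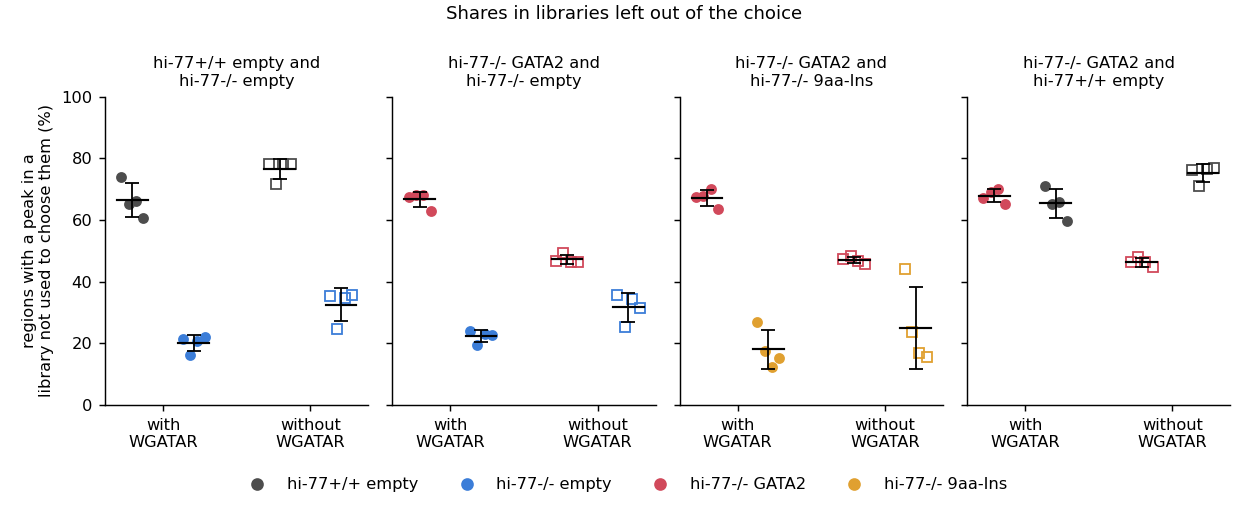
Share of regions with a peak, in percent, in libraries not used to choose them, for regions with WGATAR (filled circles) and without it (open squares), in 4 comparisons of 2 groups, with each library as a point and the mean and SD (n = 4) as bars. GATA2 lies at 67.8% with WGATAR and 46.3% without it, while hi-77+/+ empty lies at 65.5 and 75.1% in the same comparison.

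The ranks of the peaks at the 483 regions are given as a description, since ranks in the same libraries chose them. In regions with WGATAR the median rank percentile was 60.8, 60.6, 62.2 and 61.0 in GATA2 and 60.9, 63.3, 66.4 and 65.6 in hi-77+/+ empty. In regions without it the values were 69.4, 76.3, 73.0 and 79.4 in GATA2 and 64.9, 59.2, 58.7 and 59.5 in hi-77+/+ empty. GATA2 peaks were thus weaker without the motif than with it, in 4 of 4 libraries. With WGATAR the groups differed by -2.94 and overlapped, and without it they differed by 13.9 and did not. The gap between these differences was -16.9, -12.1 with peaks narrower than 1 kb and -9.64 with 4 of 4 and 0 of 4 required.

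Region by region, the peaks of all GATA2 libraries ranked ahead of those of all hi-77+/+ empty libraries at 48 of 483 regions (9.94%). Among all 28632 regions with a peak in at least 3 of 4 libraries of both groups, this held for 14.7%. The reverse order was seen at 70 of 483 regions (14.5%), against 15.7% of the 28632. The share with GATA2 ahead was below that background, and the reverse share was close to it. An order with GATA2 ahead required a peak in all 4 GATA2 libraries. Of the 483 regions, 220 had this, 139 of them with WGATAR. The reverse order required a peak in all 4 hi-77+/+ empty libraries, found at 276 regions, 113 of them with WGATAR. These counts limit the shares here and in the split by WGATAR, so neither measures rank order alone. With WGATAR, GATA2 was ahead at 41 of 224 regions (18.3%) and hi-77+/+ empty at 21 (9.38%). Without WGATAR, GATA2 was ahead at 7 of 259 (2.7%) and hi-77+/+ empty at 49 (18.9%). Among the 28632 regions, GATA2 was ahead at 23.5% of those with WGATAR and 12.5% of those without it, and hi-77+/+ empty at 12.3 and 16.6%. The 28632 thus leaned the same way, and the shares with hi-77+/+ empty ahead were near those of the 483.

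Other motifs were read in the same windows, on both strands. TGANTCA, the AP-1 motif, was in 17.2% of the 483 regions and 11.3% of all regions. It was in 16.6% of regions with the GATA2 pattern alone, 9.5% of those with hi-77+/+ empty alone and 23.5% of those where 9aa-Ins also had peaks. AGGAAG or CGGAAG, the core of the ETS motif, was less frequent than in all regions, 33.3% against 44.7%. GAGGAAGT, an ETS form bound by PU.1, was in 4.35% against 7.64% and overlaps the ETS core. TGTGGT, the RUNX core, was in 21.9% against 24.7%, and TTGCNNAA, a C/EBP motif, in 8.07% against 11.3%. Regions with the GATA2 pattern alone gave 46.8, 6.42, 33.3 and 12.1% for the ETS core, the PU.1 form, RUNX and C/EBP. Those with hi-77+/+ empty alone gave 28.4, 3.18, 19.9 and 6.59%, each lower than in the 483. Those where 9aa-Ins also had peaks gave 40.8, 4.15, 24.6 and 15.6%. The palindromic EBF1 motif and the paired IRF motif were each in 0.207% of the regions, against 1.49% and 2.12% of all regions. In the similar sets, in the same order, EBF1 was in 0.269, 0.584 and 0.0% and IRF in 1.53, 1.63 and 2.42%. An E-box of any kind was in 67.9% of the 483 and 66.8% of all regions.

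The E-box and WGATAR composite, CANNTG followed after 6 to 14 bases by WGATAR, was in 15 of the 483 regions (3.11%), against 2.01% of all regions and 8.75% of those with the GATA2 pattern alone. Among the regions that held WGATAR, 6.7% of the 224 and 7.61% of all 23936 had the composite. Pairs of WGATAR within 5 bases of each other were in 6 regions (1.24%), against 0.327% of all regions. The share was 1.53% with the GATA2 pattern alone, 0.21% with hi-77+/+ empty alone and 0.0% where 9aa-Ins also had peaks. The 6 regions lay nearest Clasp1, Ajm1, Cldn22, Spire2, Inpp4b and Tctn1, and were named after their motifs had been read.

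**Figure D4:**
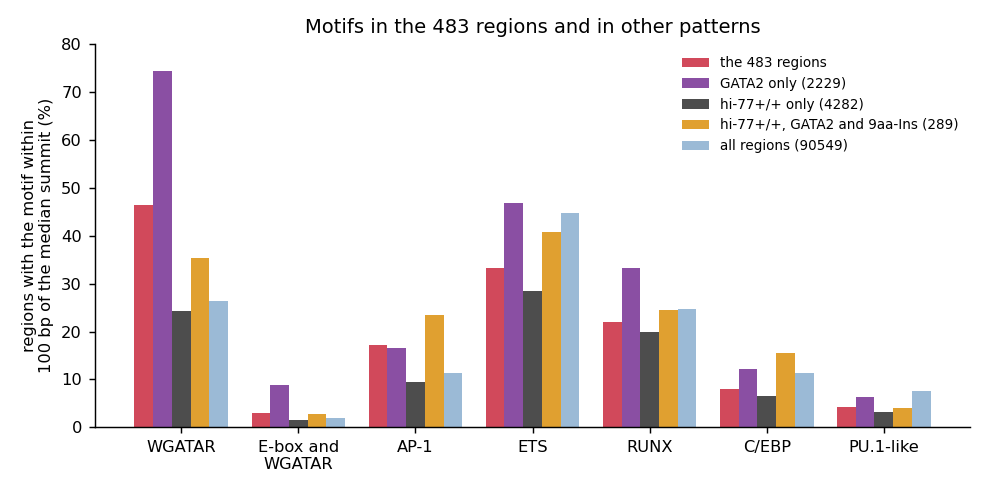
Share of regions, in percent, with each motif within 100 bp of the median summit, for the 483 regions, 3 sets of a similar pattern and all regions. WGATAR is in 46.4% of the 483 regions and in 74.4% of those with the GATA2 pattern alone. The ETS core is in 33.3% of the 483, 28.4% of those with hi-77+/+ empty alone and 44.7% of all regions.

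By location the regions were mostly distal. The median summit lay over 3 kb from a protein-coding transcription start site (TSS) at 377 of 483 (78.1%), against 73.3% of all regions. It lay over 50 kb away at 74 (15.3%), against 20.1%. The median distance was 11.1 kb, against 12.7 kb for all regions and 18.9 kb for regions with the GATA2 pattern alone. Introns held 265 (54.9%), against 44.7% of all regions, intergenic sequence 180 (37.3%), UTRs 20 (4.14%) and coding exons 18 (3.73%). The share beyond 3 kb was 86.0% with the GATA2 pattern alone, 78.5% with hi-77+/+ empty alone and 81.7% where 9aa-Ins also had peaks. Introns held 51.6, 52.0 and 52.2% of these sets. Both shares were thus above those of all regions in the similar sets too. WGATAR was in 45.3% of the 106 regions within 3 kb of a TSS and in 46.7% of the 377 beyond it. The regions had a median width of 288 bp and a median GC content of 50.7%.

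Chromosome 8 held 56 of the 483 regions (11.6%) and 6.56% of all regions. Of the peaks compared, 7.64 to 7.98% lay on chromosome 8 in hi-77+/+ empty libraries, against 5.21 to 5.84% in hi-77-/- empty, 5.06 to 5.89% in GATA2 and 5.18 to 5.63% in 9aa-Ins. All 4 hi-77+/+ libraries were above all 12 hi-77-/- libraries, whatever the vector. The deletion step held for 15.7% of regions on chromosome 8 and 6.67% elsewhere, and the rescue step for 3.52 and 4.99%. The part of this difference in the choice of the 56 regions was not tested. WGATAR was in 62.5% of the 56 and in 44.3% of the other 427. Without chromosomes 8 and 19, 408 of 81607 regions (0.5%) met the rule.

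The regions were spread over the genome, with 462 distinct nearest genes. Within 100 kb, 434 of 16978 protein-coding genes that were nearest to any region (2.56%) were nearest to one of the 483. No gene was nearest to 3 or more, and 20 genes were nearest to 2. These included Plcg2, a phospholipase of immune receptor signaling, Fcgr3, an Fc receptor, Zbtb16, the transcription factor PLZF, and Zfp36l2, a regulator of mRNA decay. Their pairs lay 29.1, 6.9, 76.8 and 37.8 kb apart. Deposited peaks lay in 7 and 4, 6 and 6, 7 and 5, and 2 and 8 of the 8 hi-77-/- empty and 9aa-Ins libraries. The other genes were Ablim1, Arhgap10, Btn2a2, Capzb, Clec16a, Gas2l1, Gm21190, Gse1, Pdia4, Pdzk1ip1, Psd3, Ptpre, Sfi1, Tmem123, Uck2 and Zdhhc1. The share of genes with 2 regions expected in general was not computed.

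Of a list of 10 genes, none was nearest to a member region. Hdc, Gata1, Il1rl1, Csf2rb, Kit, Far2, Cnr2, S1pr1 and S1pr4 were taken from the study's text on genes that respond to GATA2 in the same cells, so the list is not independent evidence, and Csf2rb2, the paralog beside Csf2rb, was added. Of the 93 regions nearest to them within 100 kb, 18 (19.4%) passed the rescue step, against 4.76% of all 81474 regions within that distance of a gene, and 6 (6.45%) passed the deletion step, against 7.47%. Most of the rescue regions had no peak in hi-77+/+ empty. At Csf2rb, the β chain shared by several cytokine receptors, 3 regions had peaks in 4, 3 and 4 GATA2 libraries and in 0 of 4 libraries of every other group. At Gata1 2 regions and at Il1rl1, the IL-33 receptor, 3 regions also lacked a peak in all hi-77+/+ empty libraries. At Hdc, the histidine decarboxylase that makes histamine, the promoter had a peak in 4 hi-77+/+ empty, 1 hi-77-/- empty, 4 GATA2 and 3 9aa-Ins libraries, so 9aa-Ins kept it outside the rule.

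The mast cell and basophil list had 3 of 17 genes nearest to a member region (2 are described here), the erythroid and megakaryocyte list 2 of 18, the stem and progenitor list 2 of 15 and the B lymphoid list 1 of 14. The lists of cytokine receptors (19 genes) and of neutrophil and monocyte genes (16) had none. The background was 2.56% of genes, and counts of 0 to 3 are too few to set a list apart.

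The Slc18a2 region, chr19:59248163-59249195, lay 11.9 kb upstream of the gene for the transporter that loads histamine and other amines into granules. Its peak ranked 39329, 25664, 18099 and 14396 in hi-77+/+ empty and 19124, 15654, 19651 and 17966 in GATA2. In hi-77-/- empty it ranked 66127, 68030, 72493 and 63265, and in 9aa-Ins 71245, 68764, 57650 and 69428. The region was therefore called in every library, always beyond rank 49000 in hi-77-/- empty and 9aa-Ins. Prss34, a mast cell and basophil protease, had a region 7.79 kb upstream with peaks in 3, 0, 3 and 0 libraries of hi-77+/+ empty, hi-77-/- empty, GATA2 and 9aa-Ins. It held no WGATAR.

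Zfpm1 encodes FOG1, the cofactor that GATA factors recruit through the N-finger. Its intronic region, chr8:122296289-122297072, lay 14.7 kb downstream of the TSS and ranked 27525, 26273, 22326 and 21316 in GATA2. In hi-77+/+ empty it ranked 29645, 48696, 32704 and 35256. GATA2 was ahead of hi-77+/+ empty in all pairs of libraries, as at 9.94% of the 483 regions and 18.3% of the 224 with WGATAR. In hi-77-/- empty it was listed in replicate 3 alone, at rank 51970, and in 9aa-Ins in replicates 1 to 3, at 54009, 57803 and 71639. Itga2b, the integrin CD41 of megakaryocytes, had a region 17.3 kb upstream, in an intron of Gpatch8, with peaks in 4, 1, 3 and 1 libraries and no WGATAR. That region was listed in every library and ranked 40934, 44041, 41488 and 60764 in GATA2. In hi-77-/- empty it ranked 49629, 59405, 40110 and 62105, and in 9aa-Ins 39179, 58833, 55458 and 69984. GATA2 thus overlapped both of these groups in rank.

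Cd34, which encodes a surface protein of progenitors, had a region 3.2 kb upstream, chr1:194935501-194935758. Its peak ranked 19773, 66732, 25534 and 43853 in hi-77+/+ empty and 26170, 40070, 49620 and 31733 in GATA2, so 1 library of each lay outside the 49000. In hi-77-/- empty it was listed in replicate 4 alone, at 42950, within the 49000 and ahead of 2 hi-77+/+ empty libraries. In 9aa-Ins it was listed in replicates 1, 2 and 4, at 51843, 80551 and 60508. Ikzf1, the lymphoid regulator Ikaros, had a region 0.216 kb downstream of a TSS with WGATAR and peaks in 4, 1, 3 and 0 libraries. A pair of regions assigned to Pdzk1ip1, at 13.7 and 13.0 kb upstream, also lay 18.5 and 19.3 kb downstream of the start of Tal1 and 3.22 and 3.96 kb past its end. Tal1 encodes the E-box-binding partner of GATA factors, and enhancers active in hematopoietic cells are known 3′ of the gene. The closer region, chr4:115074725-115075086, held 2 WGATAR motifs. It ranked 46842, 39286, 45764 and 33945 in hi-77+/+ empty and 19545, 21468, 20052 and 32303 in GATA2, and was listed in hi-77-/- empty not at all and in 9aa-Ins in replicate 1 alone, at 97984. The farther region had no WGATAR and was in the 49000 of 1 hi-77-/- empty and 1 9aa-Ins library. The link to Tal1 was drawn after the coordinates had been seen.

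Only 2 regions had peaks in all 8 hi-77+/+ empty and GATA2 libraries and no deposited peak in any of the other 8. The Ubr2 region, chr17:47174722-47175110, lay 164 kb upstream of a gene for a ubiquitin ligase and ranked 23239, 28642, 25151 and 23120 in hi-77+/+ empty and 23070, 39134, 28442 and 39500 in GATA2. It held TTATCT, 34 bp after the summit. The second, chr13:43195918-43196480, lay in a UTR of Gfod1, 24.6 kb upstream of Tbc1d7, without WGATAR. It ranked 33885, 31904, 37695 and 41848 in hi-77+/+ empty and 31922, 26870, 25169 and 44392 in GATA2.

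The 10 highest ranked of the 49 regions with 4, 4, 0 and 0 were named after their values had been seen. They lay nearest Mafk, 2810004N23Rik, 1700102P08Rik, Sec22b, Slc18a2, Ifngr2, Ptges, Ywhaz, Irf2bp2 and Olfr9. All but Sec22b and Irf2bp2 held WGATAR. The Ywhaz region, chr15:36876024-36876672, 79.3 kb upstream of the gene for 14-3-3 zeta, ranked 8032, 8878, 6275 and 7354 in GATA2 and 34135, 36974, 33839 and 36678 in hi-77+/+ empty. The Ptges region, in the gene for prostaglandin E synthase, ranked 11060, 8483, 8118 and 15075 in GATA2 and 28424, 25960, 31210 and 37989 in hi-77+/+ empty. In both, every GATA2 peak was ahead of every hi-77+/+ empty peak. This order held at 9.94% of the 483 regions and 18.3% of the 224 with WGATAR, and the opposite order at 14.5% of the 483. The Sec22b region, which lacked WGATAR, showed the reverse, with 19468, 31387, 26313 and 36085 in GATA2 and 10264, 17028, 10088 and 10139 in hi-77+/+ empty. Mafk encodes a small MAF protein that pairs with NFE2. Its region, in a UTR of Tmem184a, ranked 12844, 11806, 12692 and 12287 in hi-77+/+ empty and 14073, 18488, 18649 and 13677 in GATA2. Ifngr2 encodes a chain of the interferon γ receptor, and its intronic region ranked 19491, 16497, 30529 and 28820 in hi-77+/+ empty and 17305, 19256, 12857 and 23663 in GATA2.

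The 6 highest ranked regions with the composite lay nearest Dapp1, Fam198b, Slc18a2, Rpp25, Man2a1 and Ccnj. Dapp1 encodes an adaptor of immune receptor signaling. Its intronic region, chr3:137957752-137958532, ranked 3418, 3888, 4605 and 4577 in GATA2 and 21833, 14048, 16991 and 23802 in hi-77+/+ empty. It had peaks within the 49000 in 1 hi-77-/- empty and 1 9aa-Ins library, at 46221 and 42597. The Rpp25 region ranked 10591, 14246, 10563 and 13102 in GATA2 and 29725, 27393, 32790 and 40592 in hi-77+/+ empty, and the Fam198b region 8912, 9070, 11002 and 12164 against 23817, 26243, 39679 and 44598. Within the 49000, the Rpp25 region also had a peak in 1 hi-77-/- empty and 1 9aa-Ins library, at 40596 and 41707. So did the Fam198b region, at 47417 and 47797. At Dapp1, Rpp25 and Fam198b every GATA2 peak was ahead of every hi-77+/+ empty peak. This order was found at 9.94% of the 483 regions and 18.3% of the 224 with WGATAR. The Man2a1 region ranked 23084, 22703, 19531 and 19103 against 21268, 25457, 27722 and 25813, so the groups overlapped. The Ccnj region was called in 3 of 4 GATA2 libraries, at 32807, 39487 and 45818, and ranked 14481 to 23272 in hi-77+/+ empty.

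**Figure D5:**
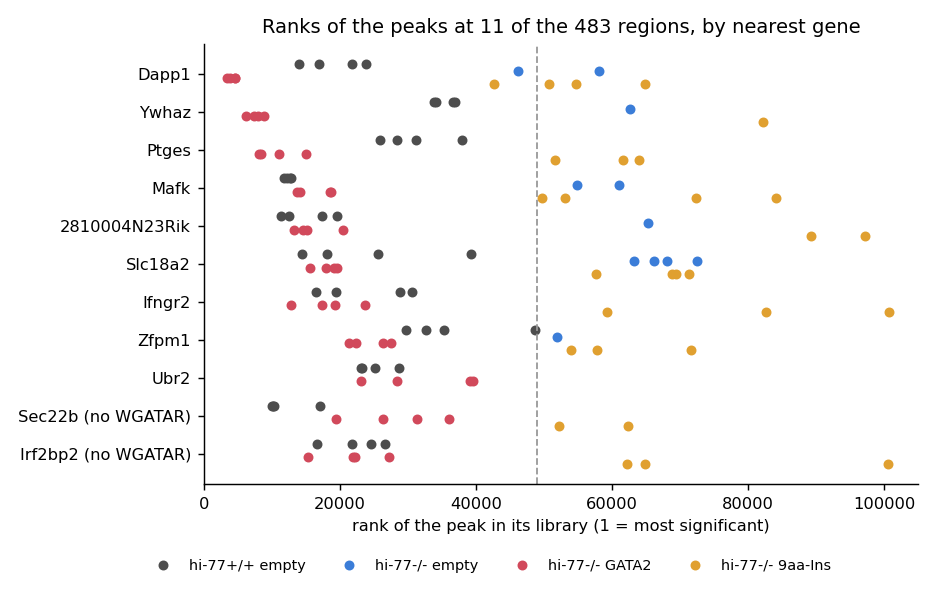
Rank of the peak in each library (1 is the most significant) at 11 of the 483 regions, named by nearest gene, where a missing point is a library without a deposited peak and the dashed line marks rank 49000. At Dapp1, Ywhaz and Ptges the GATA2 points lie ahead of all hi-77+/+ empty points, and at Sec22b, without WGATAR, behind them. Across the 483 regions these orders were seen at 9.94 and 14.5%.

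Among the 14 regions with no deposited peak in any hi-77-/- empty or 9aa-Ins library, 10 held WGATAR. The highest ranked lay 13.0 kb upstream of Capzb, the β subunit of the actin capping protein, at chr4:139179699-139180288. It ranked 6669, 11036, 6423 and 8432 in GATA2 and 28900, 70277, 35556 and 45192 in hi-77+/+ empty. The Fam126a region, with the composite, ranked 30119, 21529, 39068 and 24447 in GATA2 and 47189, 21183, 53737 and 23978 in hi-77+/+ empty. Inpp4b encodes a phosphoinositide phosphatase. Its region, with adjacent WGATAR motifs, ranked 35083, 26214, 34785 and 27151 in GATA2, and 48795, 47639 and 40292 in hi-77+/+ empty replicates 1, 3 and 4. At Capzb and Inpp4b every GATA2 peak was ahead of those in hi-77+/+ empty, and at Fam126a the groups overlapped. Across the 483 regions GATA2 was ahead in this way at 9.94%, and hi-77+/+ empty at 14.5%.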

How the data were processed

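ATAC-Seq was done on 16 libraries, 4 in each of 4 groups, and 1 list of peaks per library was used. Per the submitters' processing notes and the study's methods, reads were trimmed with Trim Galore 0.4.1, aligned to mm10 with Bowtie2 2.2.5 and freed of duplicates with Picard 2.26.0. Read ends were shifted for the transposase, and peaks were called in each library separately with MACS2 against a constant background. For each peak the authors deposited a score made from the q-value, a fold enrichment (a ratio to the background), the −log10 of the p-value, the −log10 of the q-value and the offset of the summit. All depend on read depth, which the lists do not give. Apart from the −log10 p of the weakest peak taken, none was therefore compared between libraries as a value. Counting error could not be computed, and the precision is that of 4 libraries.

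From each list the 49000 peaks of highest −log10 p on chromosomes 1 to 19 and X were taken, which gives each library the same number. Peaks of the 16 libraries that overlapped by 1 bp were merged. A library counted as having a peak where 1 of its 49000 overlapped a merged region. Distances, genes and features came from GENCODE annotation of GRCm38 and motifs from its sequence, in 100 bp on either side of the median summit. Computations used Python 3.11.15, numpy 2.4.6, pandas 2.3.3, scipy 1.17.1 and matplotlib 3.10.9.

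Groups were compared over libraries with exact two-sided permutation tests of the difference of means, with Benjamini-Hochberg adjustment within each family. Ranks, widths and deposited peaks in the libraries that chose the regions are given without a p-value, although a test had been planned. The smallest p for 4 against 4 libraries is 0.0286. For shares of regions with a peak, a pair of libraries was left out in turn, and the regions were chosen with the other 14. Each library was scored by its mean over the sets that left it out. Merging and median summits were not redone without the pair, and the scores within a group share libraries that chose the sets. This procedure was tested on simulated data. The correlation of deviations ran from -0.0167 to 0.0129 in same-numbered libraries and from -0.0191 to 0.0208 in other pairs. No pairing by replicate number was thus seen, and the libraries were treated as unpaired. The labels do not say whether same-numbered libraries were prepared together. Alternatives were another number of peaks, another width, merging, membership, overlap or window, single libraries left out and replicate blocks.

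Regions were named if they had peaks in 4, 4, 0 and 0 libraries and no deposited peak in the 8 libraries without one (up to 10, of which 2 existed), if their nearest gene within 100 kb was in a listed group of genes, if a gene was nearest to 3 or more, or if they were among the 6 best ranked with the composite. The members, gene lists and tests were chosen with earlier results of these data known. The comparisons of regions with and without WGATAR, the alternative without chromosomes 8 and 19 and the other named regions were added after the values had been seen. The values of 1 region that met the rule on gene lists are not reported here.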

Additional observations from a re-analysis of the deposited data

Results flagged for a closer look

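Single libraries stood apart from the other 3 of their group in 8 of 58 groups of values examined (gap to the nearest library against the range of the group). Chance flags about 1 in 20 groups, and groups of values from the same libraries are not independent. The share of peaks on chromosome 19 was 3.56% in 9aa-Ins replicate 4 and 3.41 to 3.43% in the others. In the comparison of hi-77+/+ empty with hi-77-/- empty, hi-77-/- empty replicate 2 had a peak at 20.6% of the regions, against 28.1 to 29.3% in the others. In the comparison of 9aa-Ins with hi-77-/- empty, the same library had 25.7%, against 33.9 to 35.3%.

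The other 5 values were of regions without WGATAR and all came from replicates numbered 2. In the comparison of hi-77+/+ empty with hi-77-/- empty, hi-77+/+ empty replicate 2 had 71.6%, against 78.1 to 78.3%, and hi-77-/- empty replicate 2 had 24.7%, against 34.6 to 35.6%. In the comparison of GATA2 with hi-77-/- empty, GATA2 replicate 2 had 49.4%, against 46.5 to 46.6%. In the comparison of 9aa-Ins with hi-77-/- empty, hi-77-/- empty replicate 2 had 29.1%, against 39.8 to 41.3%. In the comparison of GATA2 with hi-77+/+ empty, hi-77+/+ empty replicate 2 had 70.9%, against 76.2 to 76.9%.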

How the results depend on the processing

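Of the values recomputed under the alternatives, 357 kept their direction and side of the threshold or stayed within the spread, 35 lost significance, 23 moved, 16 reversed and 2 gained significance. Rank, width and deposited-peak values are descriptions in the text, though tested in these counts. Where no cause is named, the cause was not tested. With all deposited peaks, 9aa-Ins minus hi-77-/- empty was 18.1, GATA2 minus 9aa-Ins 23.2, GATA2 minus hi-77+/+ empty -5.43, the rank difference 0.116, the width difference 13.2 bp, the gap by WGATAR for 9aa-Ins -9.83, the distal share 83.0%, the WGATAR share 73.7% and the composite share 8.22%. That setting chose 377 regions, of which 47 were shared with the 483. With 50% cover, the differences were 7.8 (9aa-Ins minus hi-77-/- empty), 19.1 (GATA2 minus 9aa-Ins), -0.359 (rank) and -16.0 bp (width), the gap -0.404 and the number of regions 243. With 4 of 4 and 0 of 4, which keeps 49 regions, GATA2 minus hi-77+/+ empty was 5.33, rank -2.05 and width -17.5 bp. The WGATAR gap between the empty-vector groups was then -3.31, the rank gap by WGATAR -9.64 and the WGATAR share 63.3%. The gaps by WGATAR for GATA2 were 17.1 (against hi-77-/- empty), 12.6 (against 9aa-Ins) and 16.2 (against hi-77+/+ empty). With 25000 peaks, width was -45.8 bp, the difference in deposited peaks between 9aa-Ins and hi-77-/- empty 2.75 and the composite share 1.16%. With peaks narrower than 1 kb, width was -26.9 bp, the rank gap -12.1 and the distal share 72.9%. With summit windows, the distal share was 71.0% and the WGATAR share 40.9%. A TSS limit of 1 kb gave 89.2% distal, 150 bp windows 56.1% and whole regions 55.1% WGATAR, and CATCTG alone 0.621% composites. No call changed without chromosomes 8 and 19.

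The replicate block, whose smallest p of 0.125 cannot pass the threshold, left the differences at 45.1, 26.5, 32.4, -15.6, 6.85 and -42.5 and the gaps by WGATAR at 28.8, 27.2, 31.2 and -16.9. It therefore says nothing on stability. Whether same-numbered libraries were prepared together is not given by the labels.

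Leaving out single libraries loosens the rule for that group. The differences ran from 33.8 to 46.4 (hi-77+/+ minus hi-77-/-, both empty), 14.9 to 29.0 (GATA2 minus hi-77-/- empty), -7.26 to 0.106 (9aa-Ins minus hi-77-/- empty, the highest without 9aa-Ins replicate 4), 20.1 to 34.8 (GATA2 minus 9aa-Ins) and -31.1 to 0.174 (GATA2 minus hi-77+/+ empty). Rank ran from 1.51 to 10.4, width from -52.6 to -26.3 bp and deposited peaks from 19.7 to 34.1. The gaps by WGATAR ran from -2.24 to 4.25, 18.7 to 30.6, -0.475 to 5.1, 16.7 to 29.5 and 20.0 to 35.7 in the order above, and the rank gap from -19.6 to -10.8. The number of regions ran from 533 to 786, the highest without GATA2 replicate 4, the distal share from 76.8 to 80.4%, WGATAR from 38.4 to 51.0% and the composite from 2.29 to 3.68%.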
